A study of Mus musculus with 8 samples.

Results

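The subject is 10 nuclear receptor genes of NIH3T3 cells, an established line of mouse embryonic fibroblasts: the COUP-TF genes Nr2f1, Nr2f2 and Nr2f6, the testicular receptor genes Nr2c1 and Nr2c2, the liver X receptor (LXR) genes Nr1h2 and Nr1h3, the peroxisome proliferator-activated receptor (PPAR) genes Ppard and Pparg, and the estrogen-related receptor gene Esrra. They were found by symbol among the 78298 transcript rows of the deposited tables, and each symbol had 1 row. Poly(A) RNA was sequenced from 4 libraries of cells given the compound Mic-628 for 1 day and from 4 libraries of cells given vehicle for 1 day. All 8 libraries are wild type NIH3T3 cells grown in medium with fetal bovine serum, and no dose is named. The series title describes an inducer of Period1 that advances the circadian clock, so the comparison asks how Mic-628 changed the transcriptome and, here, whether these receptor genes were among what differed. The labels number each library by batch from 1 to 4, with 1 library of each treatment per batch. Whether each library is its own culture is not said in them, and a p-value here is set against the spread between libraries, which may be technical.

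Nuclear receptors are transcription factors with a zinc-finger domain that binds DNA and a domain that can bind a lipid-like ligand. LXRs sense oxidised cholesterol and turn on cholesterol export genes, and PPARs sense fatty acids and turn on genes for burning or storing them, both as partners of the retinoid X receptors (RXRs). COUP-TFs, testicular receptors and ERR alpha are orphans, for which no physiological ligand is settled. COUP-TFs and testicular receptors often repress, by competing for sites that other receptors use, whereas ERR alpha drives genes of mitochondrial respiration. Nuclear receptors are also tied to the clock, most directly through the REV-ERB and ROR receptors.

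The receptors can compete for DNA because the helix that reads the binding site is nearly alike in all of them. The coding stretch for that helix is shown for the genes listed here because it is the feature that unites the group. It was located in the coding sequence of an earlier version of the same transcript in GENCODE vM21 (mouse build GRCm38) and is given as 30 bases 5′ to 3′ on the coding strand, with the 18 bases that code for the base-reading part, the P-box, in capitals.
Nr2f1: TGCGAGGGCTGCAAAAGTttcttcaagagg
Nr2f2: TGCGAGGGCTGCAAGAGCttcttcaagcgc
Nr2f6: TGCGAGGGCTGCAAGAGTttcttcaagcgc
Nr2c2: TGTGAAGGTTGCAAAGGTttcttcaaaagg
Nr1h2: TGTGAAGGCTGCAAAGGCttcttccggcgc
Nr1h3: TGCGAGGGCTGCAAGGGAttcttccgccgc
Ppard: TGCGAGGGGTGCAAGGGCttcttccgccgg
Pparg: TGTGAAGGATGCAAGGGTtttttccgaaga
Esrra: TGTGAGGCCTGCAAAGCCttcttcaagagg
Against Nr2f1, the capitals differed at 2 bases in Nr2f2 and at 1 base in Nr2f6. The other genes shown differed from Nr2f1 there at 3 bases (Nr1h3), 4 bases (Nr2c2, Nr1h2 and Ppard) or 5 bases (Pparg and Esrra). Base counts do not give the order of likeness in the coded amino acids. Of those, 0 differed from Nr2f1 in Nr2f2 and Nr2f6, 1 in Nr2c2, Nr1h2, Nr1h3, Ppard and Pparg, and 2 in Esrra.

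Likeness of this kind raises the question of whether reads could be exchanged between paralogs. The longest identical run was therefore sought between the vM21 transcripts of each pair of paralogs. Nr2f1 and Nr2f2 shared the longest, 59 bases at the start of the DNA-binding domain, coding in both (GRCm38 chr13:78198284-78198342 and chr7:70360052-70360110, minus strand in both).
Nr2f1 and Nr2f2: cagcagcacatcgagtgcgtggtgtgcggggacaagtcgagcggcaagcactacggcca
Each of these genes shared a run of 23 bases with Nr2f6, which lies within the run above.
Nr2f6 with Nr2f1 or Nr2f2: tgcgtggtgtgcggggacaagtc
The longest run was 15 bases for Nr2c1 with Nr2c2, and 17 bases both for Nr1h2 with Nr1h3 and for Ppard with Pparg. All were shorter than the sequenced read of 101 bases. How the authors' counting treated reads with several matches, or strand, is not given in the sources used here; the library kit keeps strand.

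Of the 10 receptor genes, 8 had enough counts to be tested and 2, Nr1h3 and Pparg, did not. Their order of level was read from FPKM, read counts scaled to exon length and library total, which is the deposited unit that allows genes to be compared. Nr2f2 was highest, with a mean over the 8 libraries of 42.7 FPKM, above 90.9% of the 17128 tested rows. Nr1h2 followed at 35.9 FPKM. Nr2f6 (15.5 FPKM), Nr2c2 (14.8 FPKM) and Ppard (14.0 FPKM) came next, and the library ranges of neighbours in this order overlapped among these 3. Esrra stood at 11.2 FPKM, Nr2f1 at 8.56 FPKM and Nr2c1 at 3.30 FPKM, and their ranges did not overlap with that of the next gene above or below. Nr1h3 (0.0874 FPKM) and Pparg (0.0531 FPKM) were lowest, with ranges that overlapped each other.

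**Figure D1:**
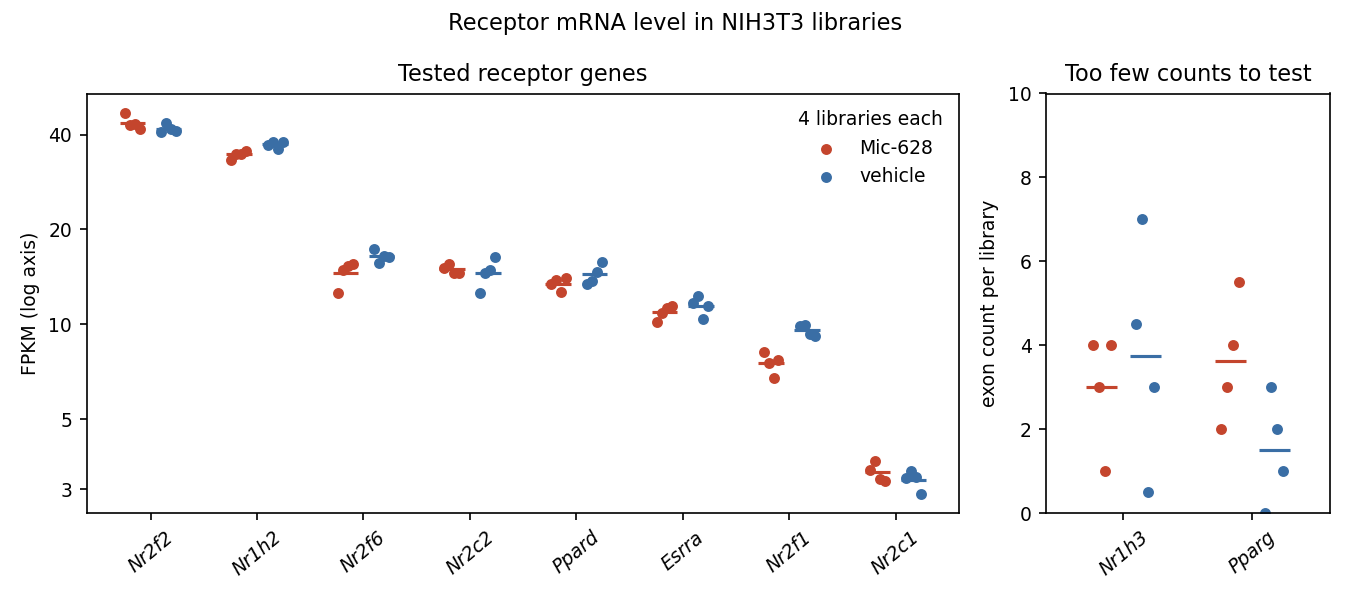
Level of the 10 receptor genes in each library, Mic-628 in red and vehicle in blue, with 4 points per group and a line at the mean. The left panel gives FPKM on a log axis for the 8 tested genes in order of level, and the right panel gives the exon counts of Nr1h3 and Pparg, which stayed at 7 or below in every library.

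Mic-628 libraries had less Nr2f1 mRNA, and none of the other tested receptor genes met the rule for a called row that follows. Among these, Nr2f6 and Nr1h2 also had 95% intervals of the fold below 1. An interval that excludes 1 equals an unadjusted p under 0.05 in edgeR, which 2905 of the 17128 tested rows met in either direction. A row was called changed at an adjusted p under 0.05 in edgeR's quasi-likelihood test over all tested rows, a rule met by 4.37% of them, 2.13% higher and 2.25% lower. By this rule 1 of the 8 tested receptor genes was called, Nr2f1, which was lower, and 7 were not. The set was chosen by gene symbol with the fold changes and adjusted p-values of this same contrast known. The count and the values below are therefore a description, and no p-value is given for a receptor gene. The median log2 fold change (Mic-628 over vehicle) was -0.08 over the 8 tested receptor genes and -0.0040 over all tested rows. In bulk RNA, fewer cells that express a gene and less of its RNA per cell cannot be told apart.

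Nr2f1 encodes COUP-TFI, a repressor and activator best known from the developing forebrain and sense organs (transcript ENSMUST00000091458.13; mm39 chromosome 13, 78337093 to 78347876, minus strand). It had 8.17, 7.51, 6.73 and 7.72 FPKM in Mic-628 libraries 1 to 4, against 9.91, 9.94, 9.31 and 9.18 FPKM in vehicle libraries 1 to 4. Every Mic-628 library was below every vehicle library. The means were 7.53 ± 0.600 FPKM with Mic-628 and 9.58 ± 0.397 FPKM with vehicle (SD, n = 4 each), and the fitted fold was 0.785 with a 95% interval of 0.726 to 0.848 (log2 fold change -0.35, SE 0.054). Within batches 1 to 4 the log2 ratios were -0.27, -0.41, -0.47 and -0.25. Nr2f1 ranked 126 by p among all tested rows. Under limma-trend on log2(FPKM + 1) over all rows, where its log2 fold change was -0.31, Nr2f1 was no longer called.

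Nr2f2 encodes COUP-TFII, known for its role in veins, lymphatics and mesenchymal cells (ENSMUST00000032768.15; chromosome 7, 70001693 to 70010341, minus strand). It had 47.0, 43.0, 43.1 and 41.6 FPKM in Mic-628 libraries, against 40.9, 43.5, 41.8 and 41.0 FPKM in vehicle libraries. The groups overlapped, and Mic-628 library 1 was the highest of all. The fitted fold was 1.04 (95% interval 0.991 to 1.10), and the log2 fold change of 0.06 was 0.01 without batch 1.

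Nr2f6, which encodes the COUP-TF relative EAR2, known in lymphocytes as a brake on cytokine genes, had 12.6, 14.9, 15.3 and 15.5 FPKM in Mic-628 libraries, against 17.3, 15.7, 16.5 and 16.3 FPKM in vehicle libraries (ENSMUST00000002466.9; chromosome 8, 71826772 to 71834604, minus strand). The groups did not overlap, and Mic-628 library 1 lay furthest from the vehicle libraries. The log2 fold change was -0.17 (SE 0.053; fold 0.890, 95% interval 0.825 to 0.961) and was -0.08 without batch 1. Its within-batch log2 ratios were -0.45 in batch 1 and -0.08, -0.11 and -0.07 in batches 2 to 4. Nr2f6 was called in edgeR with no low-count filter.

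Taken per length, the 3 COUP-TF genes summed to 65.8 ± 1.32 FPKM with Mic-628 and 67.8 ± 1.12 FPKM with vehicle (SD, n = 4 each). Nr2f2 made up 66.4% ± 2.18 of this sum with Mic-628 and 61.6% ± 1.18 with vehicle. Nr2f1 made up 11.4% ± 0.785 with Mic-628 and 14.1% ± 0.393 with vehicle. The Nr2f2 to Nr2f1 ratio of FPKM was 5.75, 5.72, 6.41 and 5.39 in Mic-628 libraries, against 4.13, 4.37, 4.50 and 4.46 in vehicle libraries, and the groups did not overlap. These shares follow from the levels above and are no further evidence.

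**Figure D2:**
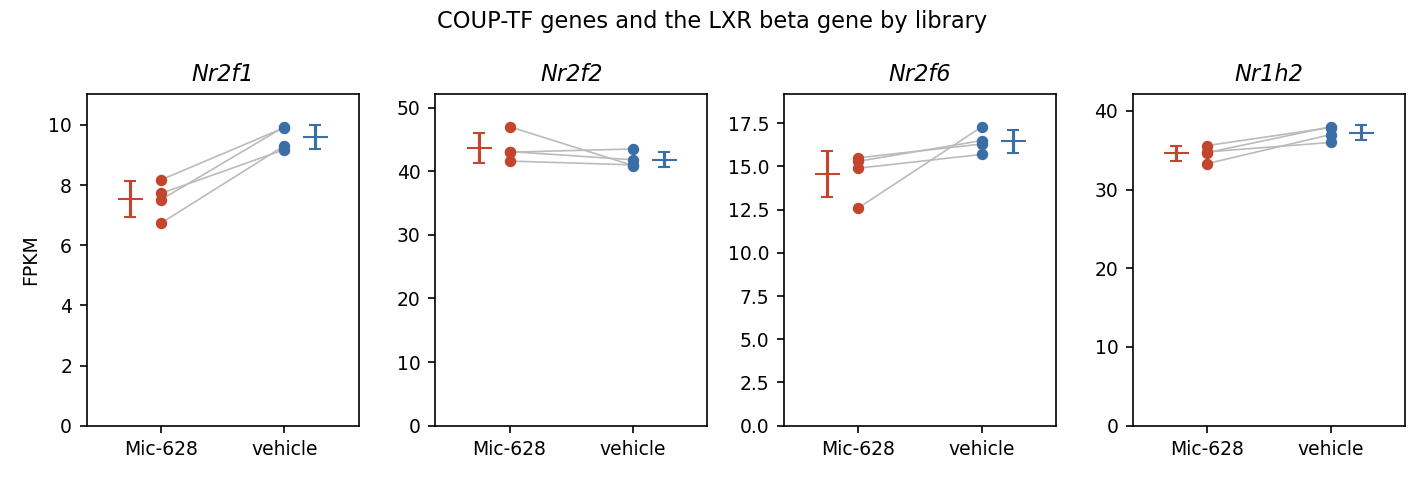
FPKM (axes from 0) of Nr2f1, Nr2f2, Nr2f6 and Nr1h2 in each library, with Mic-628 at the left of each panel, grey lines joining libraries of the same batch, and bars giving the mean and SD of 4 libraries. The groups do not overlap for Nr2f1, Nr2f6 and Nr1h2, and they overlap for Nr2f2.

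The testicular receptor genes, whose products TR2 and TR4 bind direct repeats and act in blood and germ cells, showed no separation of the groups. Nr2c1 (ENSMUST00000105290.9; chromosome 10, 93983886 to 94033073, plus strand) had 3.45, 3.69, 3.24 and 3.17 FPKM in Mic-628 libraries, against 3.25, 3.42, 3.27 and 2.89 FPKM in vehicle libraries. Its log2 fold change was 0.08 (SE 0.071; fold 1.06, 95% interval 0.955 to 1.17). Nr2c2 (ENSMUST00000113463.8; chromosome 6, 92069415 to 92144686, plus strand) had 15.1, 15.5, 14.6 and 14.6 FPKM in Mic-628 libraries, against 12.6, 14.6, 14.9 and 16.3 FPKM in vehicle libraries. The vehicle libraries held both its lowest and its highest value. Its log2 fold change was 0.03 (SE 0.057; fold 1.02, 95% interval 0.943 to 1.11), and it changed sign without vehicle library 1 (-0.03) or batch 1 (-0.04).

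Of the LXR genes, the widely expressed Nr1h2, which encodes LXR beta, made up 99.8% of the pair's summed FPKM with Mic-628 and 99.7% with vehicle. Nr1h2 (ENSMUST00000073488.12; chromosome 7, 44199041 to 44203373, minus strand) had 33.3, 34.7, 34.8 and 35.6 FPKM in Mic-628 libraries, against 37.0, 38.0, 36.0 and 37.9 FPKM in vehicle libraries. All Mic-628 libraries were below all vehicle libraries, by a small margin. The log2 fold change was -0.10 (SE 0.035; fold 0.930, 95% interval 0.884 to 0.978), and within batches 1 to 4 the log2 ratios were -0.14, -0.14, -0.05 and -0.09. Nr1h3 (ENSMUST00000111354.2; chromosome 2, 91014438 to 91025496, minus strand) encodes LXR alpha, which is abundant in liver, fat and macrophages. It had 4, 3, 1 and 4 counts in Mic-628 libraries, against 4.5, 7, 0.5 and 3 counts in vehicle libraries. The sums were 12 counts with Mic-628 (95% exact Poisson interval 6.2 to 21, counting error only) and 15 counts with vehicle (8.40 to 24.7). A difference was not detectable at this depth.

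Groups that do not overlap in FPKM were found for 10.7% of all tested rows, 5.68% with Mic-628 higher and 5.02% with Mic-628 lower. Among the 8 tested receptor genes they were found for 3, Nr2f1, Nr2f6 and Nr1h2, all with Mic-628 lower. Only Nr2f1 among these was called.

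Of the PPAR genes, Ppard, the form found in most tissues, was expressed and Pparg, the master gene of fat cell differentiation, was close to 0. Ppard (ENSMUST00000002320.16; chromosome 17, 28451675 to 28520448, plus strand) had 13.4, 13.8, 12.7 and 14.0 FPKM in Mic-628 libraries, against 13.4, 13.7, 14.7 and 15.8 FPKM in vehicle libraries. The groups overlapped, and the 2 highest values were vehicle libraries. The log2 fold change was -0.10 (SE 0.048; fold 0.934, 95% interval 0.872 to 1.00), and it was -0.05 without vehicle library 4. Pparg (ENSMUST00000171644.8; chromosome 6, 115337913 to 115467360, plus strand) had 2, 3, 4 and 5.5 counts in Mic-628 libraries, against 0, 3, 2 and 1 counts in vehicle libraries. The sums were 14.5 counts with Mic-628 (95% exact Poisson interval 7.65 to 23.5) and 6 counts with vehicle (2.20 to 13.1), and these intervals overlap.

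Esrra (ENSMUST00000025906.12; chromosome 19, 6888347 to 6899176, minus strand) encodes ERR alpha. It had 10.2, 10.9, 11.3 and 11.4 FPKM in Mic-628 libraries, against 11.7, 12.3, 10.4 and 11.4 FPKM in vehicle libraries. The groups overlapped, with a log2 fold change of -0.06 (SE 0.054; fold 0.957, 95% interval 0.887 to 1.03) that was -0.02 without batch 2.

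**Figure D3:**
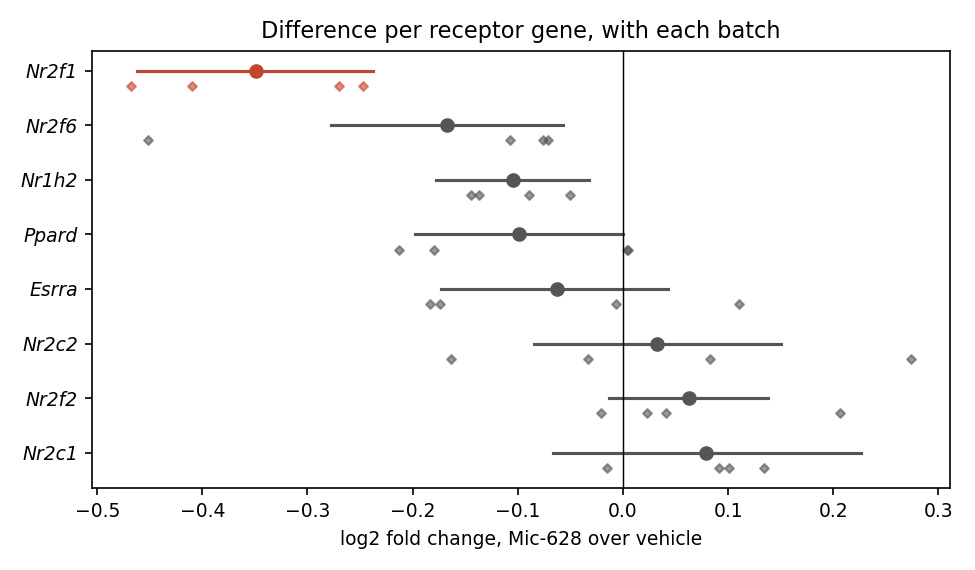
Log2 fold change (Mic-628 over vehicle) of the 8 tested receptor genes, with the fitted value as a circle, its 95% interval as a line and the ratio within each of 4 batches as small diamonds. Nr2f1 at -0.35 is the one called gene (red). All 4 of its batch ratios lie below 0, which follows from groups that do not overlap and is no further evidence.

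**Figure D4:**
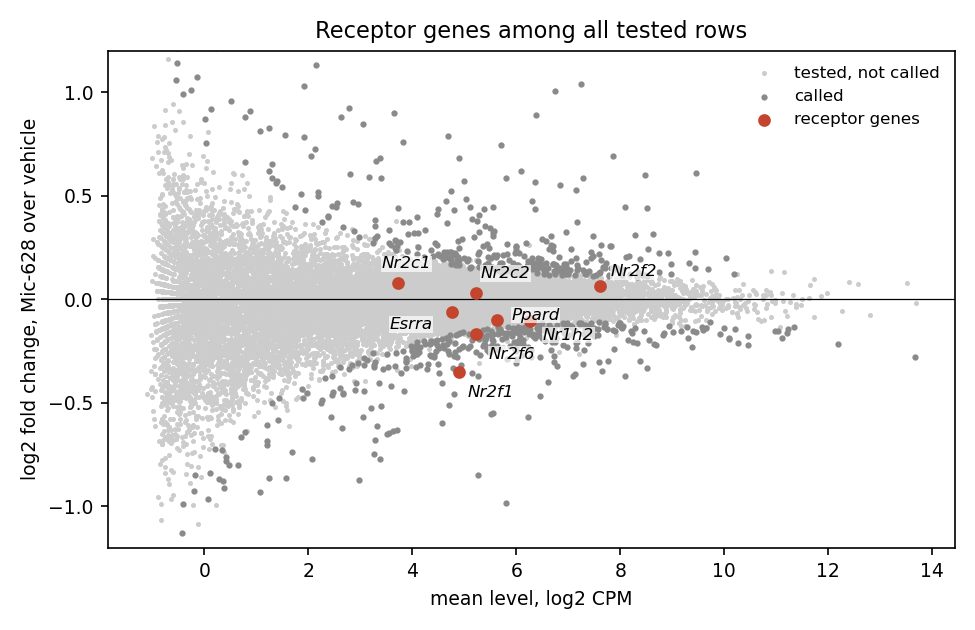
Log2 fold change against mean level (log2 CPM) for all 17128 tested rows, called rows in dark grey and the 8 tested receptor genes in red. The vertical axis stops at 1.2 on either side, beyond which 19 rows lie. The receptor genes other than Nr2f1 sit inside or at the edge of the light band of rows that were not called.

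Reads can fall in more than 1 row where genes overlap. In all, 12 rows overlapped 7 of the receptor genes, 3 of them had enough counts to be tested, and none of the 3 was called. The row ENSMUSG00000131546, on the opposite strand and overlapping the first 83 bases of Nr2f2, had 60.1 FPKM with Mic-628 and 58.5 FPKM with vehicle (log2 fold change 0.03; edgeR adjusted p = 0.804). Trmt112, on the opposite strand and overlapping 71 bases at the end of Esrra, had a log2 fold change of -0.04 (edgeR adjusted p = 0.644). ENSMUSG00000136097, on the opposite strand inside Ppard, had a log2 fold change of -0.16 (edgeR adjusted p = 0.541). Nr2f1 was overlapped by 3110006O06Rik on the opposite strand, which had between 0 and 3.5 counts in any library, while Nr2f1 had 499.5 to 745. Gm44249, on the opposite strand inside Nr2c2, had 6 to 8 counts in Mic-628 libraries and 4 to 8 counts in vehicle libraries, and Mir6990, inside Esrra, had 0.5 to 2 counts in Mic-628 libraries and 3 to 5.5 counts in vehicle libraries. The 6 other untested rows, at Nr2c1, Ppard and Pparg, had at most 1.5 counts in any library. Nr2f6, Nr1h2 and Nr1h3 overlapped no other row.

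The clock setting of the study makes the sequence at the start of these genes of interest. All 10 matched RefSeq promoter windows (GRCm38.p6, 250 bases before to 50 after a start), 14 windows in all, since some genes have several starts. RefSeq starts need not be those of the measured transcripts. Base 1416 of the Nr2f1 transcript lies at 78198342 on the minus strand. Its windows end at 78199123 and 78196699, too near for either to hold that transcript's start. Base 484 of the Nr2f2 transcript lies at 70360110, and its window begins further upstream, at 70366697. The motif counts therefore do not describe the start of the measured Nr2f1 transcript, and may not for Nr2f2. The E-box CACGTG, the element of CLOCK and BMAL1, was found in 0 of the 14 windows on either strand and in 7.15% of all 32851 windows. The nuclear receptor hexamer AGGTCA was found in 2 windows, both of Pparg, and in 16.3% of all windows. The GC box GGGCGG was found in 7 windows, of 6 genes, and in 35.7% of all windows, with 7 copies in the window of Nr2f6. The TATA box TATAAA was found in 1 window, of Pparg, and in 13.6% of all windows. The direct repeat of AGGTCA with 1 base between was found in none of the 14 and in 0.0396% of all windows.

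Genes for the proteins that these receptors work with are read against the 4.37% of all tested rows that were called, a share at which lists this short hold few calls or none. An unadjusted p under 0.05 in edgeR was more common, met by 2905 of the 17128 tested rows. Of the RXR partner genes, 2 of 3 were tested and 0 were called in edgeR, 0 in DESeq2 and 0 at an unadjusted p under 0.05. Rxra averaged 12.5 ± 0.366 FPKM with Mic-628 and 13.0 ± 0.304 FPKM with vehicle (SD, n = 4 each; log2 fold change -0.06), and Rxrb had a log2 fold change of -0.04. Of 11 corepressor genes, all tested, 0 were called in edgeR and 0 in DESeq2, and 1 had an unadjusted p under 0.05 in edgeR. Their smallest p-values belonged to Kdm1a, a histone demethylase gene (log2 fold change -0.10; edgeR adjusted p = 0.126), and to Tbl1xr1, which encodes a subunit of the NCoR complex (-0.07; edgeR adjusted p = 0.364). Leaving out vehicle library 1 or batch 1 gave 1 called corepressor gene. Of 11 coactivator genes, all tested, 0 were called in edgeR and 0 in DESeq2, and 0 had an unadjusted p under 0.05 in edgeR. The smallest p-values were those of the coactivator genes Ncoa3 (log2 fold change 0.08; edgeR adjusted p = 0.338) and Ep300 (0.04; edgeR adjusted p = 0.707). The median log2 fold change was -0.02 over the corepressor genes and 0.01 over the coactivator genes.

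The called target genes of the receptors were few, as are called rows in the whole table (4.37%), and nothing particular to the lists is read from their counts. Of 15 LXR target genes 10 were tested, 1 was higher and 0 were lower, with a median log2 fold change of -0.03. In edgeR 3 of the 10, the called gene among them, had an unadjusted p under 0.05. The gene that rose was Abca1, which encodes the cholesterol exporter of the cell membrane. It had 0.942, 1.00, 0.934 and 1.08 FPKM in Mic-628 libraries, against 0.720, 0.796, 0.844 and 0.724 FPKM in vehicle libraries. The groups did not overlap (log2 fold change 0.36, SE 0.079; edgeR adjusted p = 0.00821). The call of Abca1 was lost when batch 2 or batch 4 was left out (edgeR adjusted p 0.0526 and 0.0808), and in DESeq2 with the batch block (adjusted p = 0.206). Over all alternatives its adjusted p ran from 0.00174 to 0.508. Of 15 genes of cholesterol synthesis and oxidation, which supply LXR ligands, 13 were tested, 0 were higher and 1 was lower. In edgeR 3 of the 13, the called gene among them, had an unadjusted p under 0.05. Leaving out vehicle library 1 or batch 1 gave 2 called genes of this list, and leaving out vehicle library 3, batch 2 or batch 3 gave 0, as did DESeq2 with the batch block.

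Of 19 PPAR target genes 16 were tested, 1 was higher and 1 was lower, and the median log2 fold change was -0.0003. In edgeR 6 of the 16, the called genes among them, had an unadjusted p under 0.05. Angptl4, which encodes a secreted inhibitor of lipoprotein lipase, had 4.05, 2.91, 3.68 and 3.51 FPKM in Mic-628 libraries, against 2.7, 2.54, 2.27 and 1.86 FPKM in vehicle libraries. Angptl4 rose by 0.59 on the log2 scale (SE 0.102; edgeR adjusted p = 0.000676). Pdk4, which encodes a kinase that turns off pyruvate dehydrogenase, went the other way and fell by 0.23 on the log2 scale (14.6 ± 0.826 FPKM with Mic-628 and 17.0 ± 0.701 FPKM with vehicle, SD, n = 4 each; edgeR adjusted p = 0.00178). Both calls were lost under limma-trend on log2(FPKM + 1) (adjusted p 0.0709 for Angptl4 and 0.0548 for Pdk4). Leaving out batch 3 ended the call of Pdk4 (edgeR adjusted p = 0.0534). Their adjusted p ran from 1.49e-10 to 0.175 for Angptl4 and from 1.27e-05 to 0.121 for Pdk4 over all alternatives. As background, both genes are also controlled by other regulators, among them glucocorticoids and, for Angptl4, hypoxia.

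All 19 ERR target genes were tested, 1 was higher and 0 were lower, and the median log2 fold change was -0.0065. In edgeR 2 of the 19, the called gene among them, had an unadjusted p under 0.05. Idh3a, a subunit gene of the citric acid cycle enzyme isocitrate dehydrogenase, rose from this list (25.8 ± 0.573 FPKM with Mic-628 and 23.3 ± 0.974 FPKM with vehicle, SD, n = 4 each; log2 fold change 0.15; edgeR adjusted p = 0.0237). This call was close to the threshold. It was lost without Mic-628 library 1, 2 or 3, vehicle library 3 or 4 (edgeR adjusted p 0.0639, 0.0572, 0.0813, 0.0634 and 0.0859) or batch 2, 3 or 4 (0.0542, 0.163 and 0.0719), and the range over all alternatives was 0.0219 to 0.292. Leaving out batch 1 gave 2 called genes, with Cycs, the cytochrome c gene, added.

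The rest of the superfamily gives a scale for these differences. Of the 39 other nuclear receptor genes 18 were tested, 3 were higher and 4 were lower. The REV-ERB genes stood at the ends, Nr1d1 with a log2 fold change of 1.52 and Nr1d2 with -0.98 (edgeR adjusted p 6.25e-19 and 6.18e-15). The thyroid hormone receptor gene Thra (0.62) and the retinoic acid receptor gene Rarg (0.37) were also higher (edgeR adjusted p 8.05e-11 and 2.01e-08). Thra is a neighbour of Nr1d1 in the genome, and whether reads of Nr1d1 entered its row was not tested. The retinoic acid receptor gene Rara had a log2 fold change of -0.19, the vitamin D receptor gene Vdr of -0.46 and Rora, which encodes an activator of clock genes, of -0.33 (edgeR adjusted p 0.00773, 0.0341 and 0.0474). The call of Rara was lost without batch 3, in DESeq2 with the batch block and under limma-trend over all rows. The call of Vdr was lost without Mic-628 library 2 or 3, without vehicle library 1, 2 or 3, without batch 2 or 3, in DESeq2 with the batch block and in every limma-trend fit. Rora was called in 4 of the alternatives alone, those with DESeq2 size factors in edgeR, with the CPM filter, without vehicle library 4 and without batch 4. It was not called in edgeR with the batch block. The difference between the 2 sets of receptor genes was not tested.

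**Figure D5:**
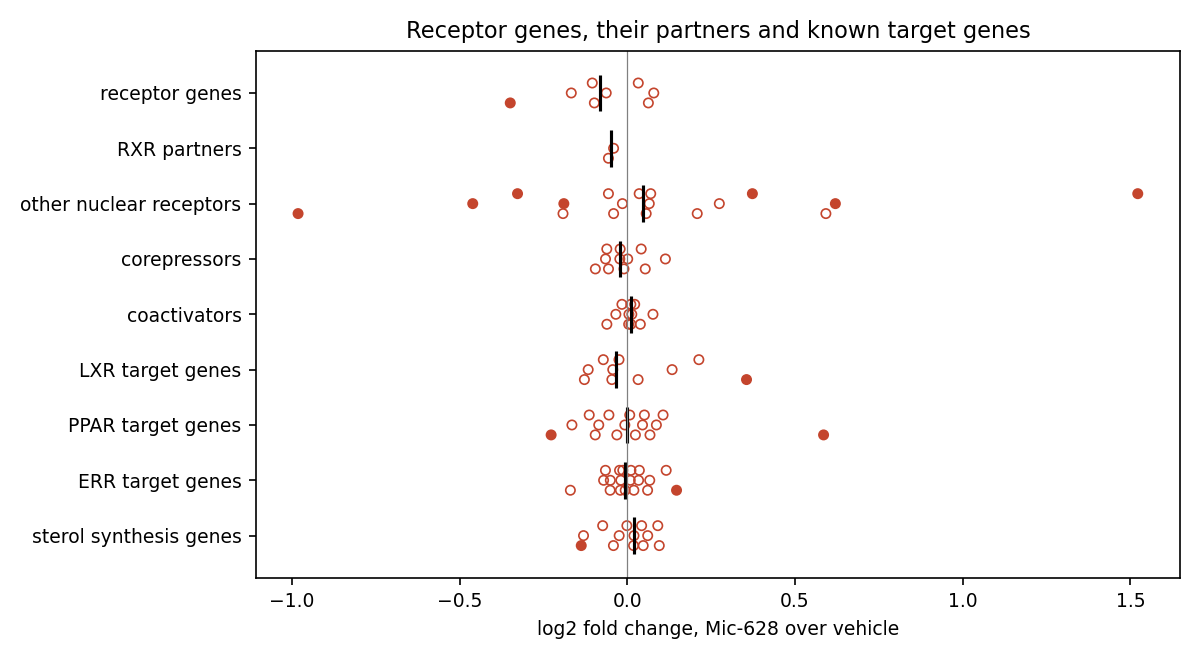
Log2 fold change (Mic-628 over vehicle) of each tested gene in the receptor group and in 8 related lists, with filled points for called genes, open points for genes that were not called and a black bar at the median. The medians lie between -0.08 and 0.05, and the list of other nuclear receptors holds the most called genes, 7.

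The libraries held between 18.1 M and 23.2 M (M, mega) counts on listed transcripts, the fewest in Mic-628 library 1, which was also the one furthest from its group for Nr2f2 and Nr2f6. Per1, the gene named in the series title, was higher with Mic-628, at 24.9 ± 1.17 FPKM against 4.31 ± 0.235 FPKM with vehicle (SD, n = 4 each). All 9 fibroblast markers were expressed, and 4 of them were lower with Mic-628, Col3a1 (log2 fold change -0.57), Fn1 (-0.28), Vim (-0.22) and Col1a2 (-0.14; edgeR adjusted p 8.57e-07, 1.66e-05, 5.37e-05 and 0.00708). Col1a2 was lost when batch 2 or batch 3 was left out (0.106 and 0.0956). The other markers were not called: Col1a1 (log2 fold change -0.0044), Thy1 (0.0031), Pdgfra (0.0312), Pdgfrb (0.0099) and S100a4 (-0.0988). Vim (mean 1831 FPKM with Mic-628, 2127 FPKM with vehicle) and Fn1 (1320 and 1599 FPKM) made up most of the sum of the 9 markers. That sum was 4431 to 4548 FPKM with Mic-628 and 5080 to 5259 FPKM with vehicle, and the groups did not overlap. The part of this and of the other-cell markers in the values of the receptor genes was not tested. Markers of other cells summed to far less than the fibroblast markers, but not all were low. The macrophage marker Cd68 had a mean of 7.42 FPKM with Mic-628 and 6.59 FPKM with vehicle. For scale, Nr2f1 had a mean of 8.56 FPKM over all libraries. The 11 fat cell markers summed to 3.33 to 3.89 FPKM with Mic-628 and 2.97 to 3.48 FPKM with vehicle, with Adipoq, Lep and Cebpa at 0 in every library. Fabp4, a fatty acid carrier gene of fat cells, missed the threshold at a log2 fold change of 0.91 (edgeR adjusted p = 0.0748) and passed it when vehicle library 4 was left out (0.0264). The lipase gene Lipe had a log2 fold change of -0.07 (edgeR adjusted p = 0.704). The 6 macrophage markers summed to 8.89 to 9.75 FPKM with Mic-628 and 8.05 to 8.78 FPKM with vehicle, with Adgre1 at 0. Of these, Csf1r had a log2 fold change of 0.21 and Cd68 of 0.18 (edgeR adjusted p 0.149 and 0.26). The 5 epithelial markers summed to 1.85 to 2.68 FPKM with Mic-628 and 1.86 to 2.10 FPKM with vehicle, and the 4 endothelial markers to 0.137 to 0.173 FPKM with Mic-628 and 0.142 to 0.271 FPKM with vehicle. Of the epithelial markers, Krt8 had a log2 fold change of 0.49 and Krt14 of 0.06 (edgeR adjusted p 0.258 and 0.886). Of the other-cell markers, 2 each of the fat cell, macrophage and epithelial lists and 0 of the endothelial list were tested. Both edgeR and DESeq2 called 0 of them. In edgeR 4 had an unadjusted p under 0.05, Fabp4, Csf1r, Cd68 and Krt8, all higher with Mic-628. That level was met by 2905 of the 17128 tested rows.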

How the data were processed

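The mouse build GRCm39 (mm39) and the tools HOMER 4.11, STAR 2.7.10a and bcl2fastq are listed, without roles, per the submitters' processing notes. The authors deposited read counts over exons of 1 canonical transcript per gene, not normalized, in multiples of 0.5 and so handled as estimated counts. They also deposited FPKM values for the same transcripts. FPKM recomputed from counts, exon length and the header totals (19.6 M to 25.1 M) differed by at most 0.0005. Exons outside the listed transcript do not enter its row. In the 24827 single-exon rows the exon length equals end minus start, so starts were taken to count from 0 and are printed 1-based.

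Rounded counts were tested with edgeR 4.0.16 under R 4.3.3 (filterByExpr, minimum count 10; TMM; quasi-likelihood F test without a block; Benjamini-Hochberg adjustment over 17128 rows; called at an adjusted p under 0.05). The standard error is the absolute log2 fold change divided by the square root of F. The 95% intervals use the t distribution with the total degrees of freedom of that test, residual plus prior. Alternatives used DESeq2 1.42.0, limma 3.58.1 on log2(FPKM + 1) and log2(FPKM + 0.1), other filters and scaling, and left out each library or batch in turn. The edgeR fit was tested on simulated data. It called 20 of 50 genes changed 1.2-fold, 40 of 50 at 1.5-fold, 47 of 50 at 2-fold and 50 of 50 at 3-fold. There were 12 false calls. Changes near 1.2-fold were thus mostly missed.

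The labels state a shared batch, so the batch numbers pair the libraries. Over 10292 genes, deviations of same-numbered libraries correlated at -0.0925, 0.0744, -0.0213 and -0.0949, within the range of other pairs (-0.117 to 0.141). No pair of replicates of a group agreed within counting noise (chi-square per gene 1.66 to 5.33).

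The receptor genes and all lists were chosen with earlier results of these data known. From each list, up to 4 called genes with the smallest p are named, or 2 where none was called; some genes and sequences are not reported here. Rara, Vdr and Rora were named beyond this rule, after their values were seen. Fibroblast and other-cell markers, targets, partners and promoter motifs are textbook lists. No protein sequences were used here. Figures were drawn with matplotlib 3.10.9.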

Additional observations from a re-analysis of the deposited data

How the results depend on the processing

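Across 21 alternatives the log2 fold change of Nr2f1 ran from -0.39 to -0.30 and was called in all but 1. The count of called receptor genes was 1 whichever library or batch was left out, 2 with no low-count filter (Nr2f6 added) and 0 by limma-trend on log2(FPKM + 1) over all rows. Signs turned in these single genes when libraries or batches were left out: Nr2c2 (-0.0378 to 0.1045; below 0 without vehicle library 1 or batch 1), Ep300 (-0.0331 to 0.0854; the same settings), Rxrb (-0.0676 to 0.0075; above 0 without batch 1) and Krt14 (-0.1007 to 0.1381; below 0 without Mic-628 library 4 or batch 4). None of these was called.

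The count of all called rows, 749 (364 higher, 385 lower), was 253 (134, 119) in DESeq2 with the replicate block, 277 (156, 121) by limma-trend on log2(FPKM + 1), 273 (153, 120) on log2(FPKM + 0.1) and 170 (107, 63) over all rows; leaving out libraries or batches gave 292 to 802 (164 to 412 higher, 128 to 429 lower). It was 438 without Mic-628 library 3, 426 without vehicle library 2, 331 without batch 2 and 292 without batch 3. In DESeq2 with the block, called genes numbered 4 of the other nuclear receptors and 0 each of the LXR target, ERR target and sterol lists. With the replicate block in edgeR, 6 of the other nuclear receptors were called (Rora was lost); it changed no other call of a gene named here. By limma-trend with either pseudocount, the LXR, PPAR and ERR target lists had 0 each. Over all rows these and the sterol and fibroblast lists had 0 each, and the other nuclear receptors 4. DESeq2 without a block gave 2 for the sterol list. Leaving out libraries or batches gave 4 to 7 for the other nuclear receptors, 0 to 1 for corepressors, LXR targets and fat cell markers, 1 to 2 for PPAR targets, 0 to 2 for ERR targets and sterol genes, and 3 to 5 for fibroblast markers. The cause was not tested. Summing rows of a symbol changed nothing, since each receptor symbol has 1 row. At this depth Nr1h3 and Pparg cannot be compared.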

Other observations

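Inside Esrra lies the row of the microRNA gene Mir6990, 90 bases of exon on the same strand. It had 2, 1, 1.5 and 0.5 counts in Mic-628 libraries, against 5, 3, 3.5 and 5.5 counts in vehicle libraries. The groups did not overlap, at counts too few for the row to be tested. In poly(A) RNA such a row holds pieces of longer transcripts that cross it, and it says nothing of the mature microRNA. Esrra itself overlapped between the groups. Mir6990 was looked at because it overlaps a receptor gene.

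The spread among libraries of 1 group differed between the receptor genes. Counting error, which is larger at lower counts, is part of this spread and was not taken out. The coefficient of variation of FPKM over 4 libraries was 2.76% with Mic-628 and 2.54% with vehicle for Nr1h2, the steadiest of the 8 tested genes in both groups. It was 9.32% with Mic-628 and 4.03% with vehicle for Nr2f6, and 2.95% with Mic-628 and 10.6% with vehicle for Nr2c2. In Nr2f6 the wide group owes its spread to Mic-628 library 1 and in Nr2c2 to vehicle libraries 1 and 4, at 12.6 and 16.3 FPKM.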
